A study of Mus musculus with 30 samples.

Results

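The cells set against each other here were 16 single cells of the early mouse embryo, chosen by how much *Prdm1* transcript each contained. Among 26 cells labelled WT, *Prdm14* (+/+), or *Prdm14* (+/-), 7 had a deposited *Prdm1* value of at least 11 on the log2 scale (Prdm1-high cells) and 9 had a value below 10 (Prdm1-low cells), while the other 10 lay between and entered no side. The whole series held 30 cells, each on 1 array. The embryos were C57BL/6, from matings between *Prdm14* (+/-) mice, and were taken at E7.25-E7.5. The base of the allantois bud was dissociated and single cells were picked with a glass capillary. The remaining 4 cells are labelled *Prdm14* KO and are mentioned only where their values bear on a gene.

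All 30 cells had been called PGCs because targeted PCR found *Prdm1* in their cDNA, so the Prdm1-low cells were not cells without *Prdm1*. Each value is a model-based expression index (MBEI), which combines the probes of a probe set into 1 level. The deposited values are on the log2 scale, and many probe sets are listed at exactly 0. A 0 cannot be told apart from a missing level, since 4 of the 19 measured genes on the housekeeping list were also listed at 0 in some cells. *B2m* was at 0 in 13 of the 30 cells and *Hprt* and *Rps2* in 7 each, and *Rps2* lay between 13.35 and 13.54 in all the others. Such values are therefore only called listed at 0. All values below 6 (64 MBEI) were set to 6, called the floor, before any mean was taken. This understates the distance to a side whose cells truly lie below the floor. Where a 0 stands for a missing level, it can overstate the distance instead. Differences are Prdm1-high minus Prdm1-low on that scale. The labels name no embryo, so each side counts as 1 sample, no test was run, and every SD given is the spread between single cells.

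*Prdm1* encodes BLIMP1, a zinc finger repressor that starts the germ cell programme in a few epiblast-derived cells at the posterior end of the mouse embryo. BMP4 from extraembryonic ectoderm and WNT signalling bring on *Prdm1* and *Prdm14*, and with *Tfap2c* they turn off the somatic mesoderm programme, switch pluripotency genes such as *Sox2* back on and start the remodelling of DNA and histone methylation. The neighbours of PGCs at this site are allantoic and posterior mesoderm cells, which express *Hox* and T-box genes.

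*Prdm1* itself, the measure that set the sides, averaged 11.54 ± 0.30 in Prdm1-high cells (SD, n = 7; 11.12 to 11.97) and 8.68 ± 0.67 in Prdm1-low cells (SD, n = 9; 7.83 to 9.66). The cells just outside the limits had 10.96 and 10.05, against 11.12 and 9.66 for the cells just inside. The array has 1 probe set for *Prdm1* (gene at chr10:44437174-44528558, GRCm38.p6).

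Both sides held both labels. The Prdm1-high side had 4 cells labelled *Prdm14* (+/-) and 3 labelled WT, and the Prdm1-low side had 4 and 5. By the array codes, the Prdm1-high cells came from run 1 (1 cell), run 2 (4 cells) and run 3 (2 cells), and the Prdm1-low cells from the same runs with 4, 3 and 2 cells. Every run 1 cell was labelled WT and every run 3 cell here *Prdm14* (+/-). All 4 cells labelled KO also came from run 3, so comparisons with them mix label and run in part, which was not separated. The genotype labels need care, because *Prdm14* transcript was abundant in the 4 cells labelled KO (10.03 to 12.15) and listed at 0 in all 5 Prdm1-low cells labelled WT. Whether the probe set detects transcript outside the deletion was not established, and groups are therefore called by their labels.

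Array quality was alike on both sides. The number of probe sets above the floor was 11825 ± 1260 in Prdm1-high cells (9856 to 13511) and 11909 ± 1239 in Prdm1-low cells (10276 to 13622). The share of probe sets listed at 0 was 64.7% on the Prdm1-high side and 64.8% on the Prdm1-low side, and 19 housekeeping genes averaged 12.02 ± 0.15 and 12.13 ± 0.21. Over the 26 cells, *Prdm1* and the number of probe sets above the floor had a Spearman correlation of -0.04, given as a description since the cells share labels, array runs and possibly embryos. The 3′ *Actb* control probe set was more spread in Prdm1-high cells (11.86 ± 1.01) than in Prdm1-low cells (12.26 ± 0.30), and its part in the results was not tested.

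A gene was called higher or lower where the sides differed by at least 1 (2-fold) and this exceeded the pooled SD of the cells. Counted genes were the 9492 of 18194 that lay above the floor in at least 6 of the 26 cells, *Prdm1* left out. Of these, 329 genes (3.47%) were called higher in Prdm1-high cells and 286 (3.01%) lower. With cell-to-cell spread this wide the rule also makes calls where sides do not differ, so these counts describe the 16 cells and are no count of regulated genes. The median difference over the counted genes was -0.002. In 1 counted gene, *Kit*, every Prdm1-high cell lay above every Prdm1-low cell (0.0105% of the counted genes), and in 2 genes, *Rmdn3* and *Impdh1*, every one lay below (0.0211%). Among so many genes, a few such separations can also occur where sides do not differ.

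Upstream sequences are shown for 4 genes that recur below, 2 that were called higher in Prdm1-high cells (*Kit* and *Epcam*) and 2 that were called lower (*Dnmt3b* and *Hoxb1*). They are the bases before the annotated start of each gene (RefSeq, GRCm38.p6), 5′ to 3′ on the gene's strand, with capitals marking the letters GAAAG on either strand, the core of the sequence that BLIMP1 is known to bind.
Kit (chr5:75574737-75574986, + strand): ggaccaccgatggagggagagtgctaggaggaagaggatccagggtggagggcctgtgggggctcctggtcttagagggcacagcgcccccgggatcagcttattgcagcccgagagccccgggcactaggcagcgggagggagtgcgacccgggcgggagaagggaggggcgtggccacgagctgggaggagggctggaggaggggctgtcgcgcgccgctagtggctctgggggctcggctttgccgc
Epcam (chr17:87635729-87635978, + strand): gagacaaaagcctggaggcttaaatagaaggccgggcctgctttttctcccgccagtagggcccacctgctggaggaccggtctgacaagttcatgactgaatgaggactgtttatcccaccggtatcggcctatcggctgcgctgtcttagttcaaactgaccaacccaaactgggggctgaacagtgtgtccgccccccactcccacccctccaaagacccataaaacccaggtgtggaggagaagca
Dnmt3b (chr2:153649199-153649410, + strand): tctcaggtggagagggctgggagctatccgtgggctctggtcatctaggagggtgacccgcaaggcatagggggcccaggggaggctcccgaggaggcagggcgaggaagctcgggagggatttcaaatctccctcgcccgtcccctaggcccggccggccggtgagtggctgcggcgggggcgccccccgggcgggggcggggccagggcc
Hoxb1 (chr11:96365508-96365745, + strand): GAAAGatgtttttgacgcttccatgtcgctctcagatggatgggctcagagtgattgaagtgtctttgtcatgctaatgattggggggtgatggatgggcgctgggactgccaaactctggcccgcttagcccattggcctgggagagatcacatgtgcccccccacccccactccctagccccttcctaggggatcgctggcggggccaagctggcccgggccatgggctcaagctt
Only the *Hoxb1* stretch held those letters. Over the 250 bases before the start, GAAAG on either strand occurred in 42.7% of 279 promoters of genes called higher, 45.8% of 238 promoters of genes called lower and 47.0% of 7769 promoters of counted genes. The longer GTGAAAG, which contains GAAAG, occurred in 3.58% of the promoters of genes called higher, 1.68% of those called lower and 2.93% of those counted. Among all 27025 promoters in the reference, the shares were 51.4% for GAAAG and 3.65% for GTGAAAG. A match is a description of letters and not of binding.

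The germ cell genes stood mostly higher in Prdm1-high cells. Of 16 measured genes on the list (*Prdm1* is not on it), 12 were counted, 5 of them were called higher and none lower, and 11 of the 12 differences were positive. The share called higher over all counted genes is 3.47%. Their median difference was 1.36, beside -0.002 over all counted genes. Treating values of 0 as missing, which also drops cells that truly lack a transcript, left 4 of the 12 called higher and a median of 0.60. The mean over the measured list, its score, was 9.78 ± 0.46 in Prdm1-high cells (n = 7) and 8.70 ± 0.72 in Prdm1-low cells (n = 9), a difference of 1.08 against a pooled SD of 0.62. The cells between the limits averaged 9.31, and those labelled KO, whose *Prdm1* was 11.38 to 12.27, averaged 10.17 ± 0.39. Over the 26 cells the score had a Spearman correlation with *Prdm1* of 0.68. It was 0.14 within the Prdm1-high side, 0.58 within the cells between the limits and 0.47 within the Prdm1-low side.

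**Figure D1:**
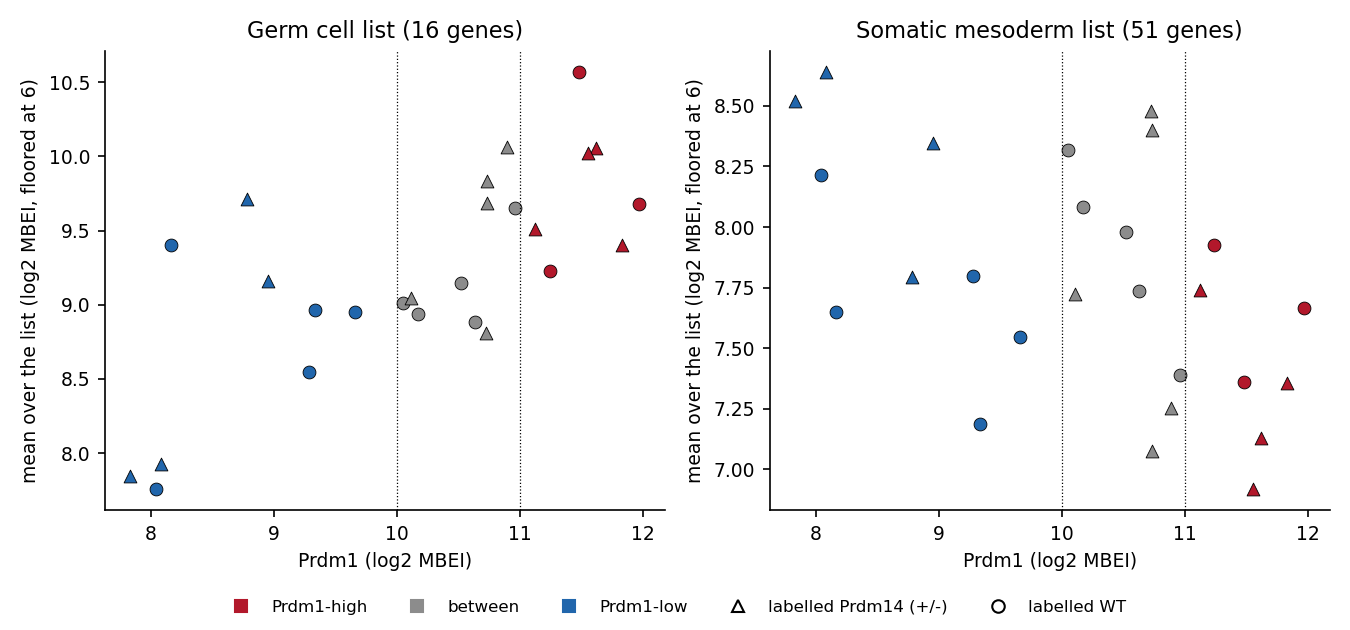
Mean level of the 16 measured germ cell genes (left) and the 51 measured somatic mesoderm genes (right), in log2 MBEI floored at 6, against *Prdm1* in log2 MBEI, for the 26 cells labelled WT (circles) or *Prdm14* (+/-) (triangles). The dotted lines are the limits at 10 and 11. The 3 cells with the lowest *Prdm1* have germ cell scores of 7.76 to 7.93, below all other cells.

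*Kit*, the receptor for stem cell factor that PGCs need to survive and migrate, was the only counted gene with every Prdm1-high cell above every Prdm1-low cell. Its lowest, median and highest values were 11.22, 11.57 and 12.44 in Prdm1-high cells, against 3.85, 8.77 and 10.89 in Prdm1-low cells. Floored means were 11.78 ± 0.48 and 9.12 ± 1.71, a difference of 2.66. No cell of either side was listed at 0. The difference was as large among cells labelled *Prdm14* (+/-) (2.79) as among those labelled WT (2.63).

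*Prdm14* encodes the partner of BLIMP1 in setting up the germ line. Its lowest, median and highest values were 9.34, 10.44 and 11.32 in Prdm1-high cells. In Prdm1-low cells 6 of 9 were listed at 0, and the other 3 had 9.53, 11.79 and 8.97, and all 3 are labelled *Prdm14* (+/-). The sides overlapped only through the cells at 9.53 and 11.79. The difference was 3.10 with a pooled SD of 1.72, with 1.80 among cells labelled *Prdm14* (+/-) and 3.91 among those labelled WT. It was 0.36 and not called with values of 0 treated as missing, which leaves 3 Prdm1-low cells.

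*Dppa3* (Stella), a small protein that guards the germ line and early embryo against excess DNA methylation, spanned nearly its whole range on both sides. Prdm1-high cells had a lowest value of 0 (cell 64), a median of 12.12 and a highest of 12.92, and 6 of 7 lay above the floor. Among Prdm1-low cells 5 of 9 lay above the floor, with a median of 8.07 and a highest value of 12.21. The difference of 2.65 was only just above its pooled SD of 2.53. It was 4.44 among cells labelled *Prdm14* (+/-) and 0.42 among those labelled WT, where the cell at 0 belongs. It was 2.81 over the 6 Prdm1-high and 7 Prdm1-low cells with a value above 0. *Dppa3* and *Prdm14* had a Spearman correlation of 0.59 over the 26 cells, again as a description.

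The other called genes of the list differed less but were measured in every cell. *Ifitm3* (Fragilis), an interferon-inducible membrane protein marking early PGCs, had 12.85, 13.20 and 13.42 as lowest, median and highest in Prdm1-high cells and 8.59, 12.23 and 13.09 in Prdm1-low cells, a difference of 1.41. *Alpl*, the alkaline phosphatase by which PGCs were first stained, had 10.58, 10.98 and 11.56 in Prdm1-high cells and 7.40, 10.31 and 11.27 in Prdm1-low cells, a difference of 1.19. In both genes the Prdm1-high cells lay close together, and the Prdm1-low cells reached from far below into their range.

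*Tfap2c* and *Dnd1*, an AP-2 transcription factor and an RNA-binding protein of the germ line, were not called. *Tfap2c* had 5.76, 11.87 and 12.08 as lowest, median and highest in Prdm1-high cells. Within the Prdm1-low side it was split, with 6 cells between 10.46 and 12.33 and 3 below the floor, 2 of them listed at 0. *Dnd1* had 9.78, 11.68 and 12.30 in Prdm1-high cells and a median of 9.31 and a highest value of 12.65 in Prdm1-low cells, where it was listed at 0 in 2 of those same 3 cells. *Lin28a*, an RNA-binding protein that lifts the repression of *Prdm1* by let-7 microRNAs, was the only counted gene of the list with a negative difference (-0.85, not called).

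Those 3 Prdm1-low cells (cells 61, 78 and 100) were also the 3 lowest in *Prdm1*, at 8.04, 7.83 and 8.08. They carried *Dppa3* at 3.40, 0 and 0, *Sox17* below the floor and *Ifitm3* at 8.59, 10.68 and 11.05, its lowest values among the 16 cells. Their germ cell scores of 7.76 to 7.93 stood apart from the other 6 Prdm1-low cells (8.55 to 9.71) and from the Prdm1-high cells (9.23 to 10.57). One is labelled WT and 2 *Prdm14* (+/-), in runs 2 and 3. Without them, a choice made after their values were seen, the germ cell difference was 0.66 and that of *Dppa3* was 1.47, while *Kit* kept 2.31 and *Prdm14* 2.91. *Ifitm3* had 0.59 without them and no longer met the rule.

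**Figure D2:**
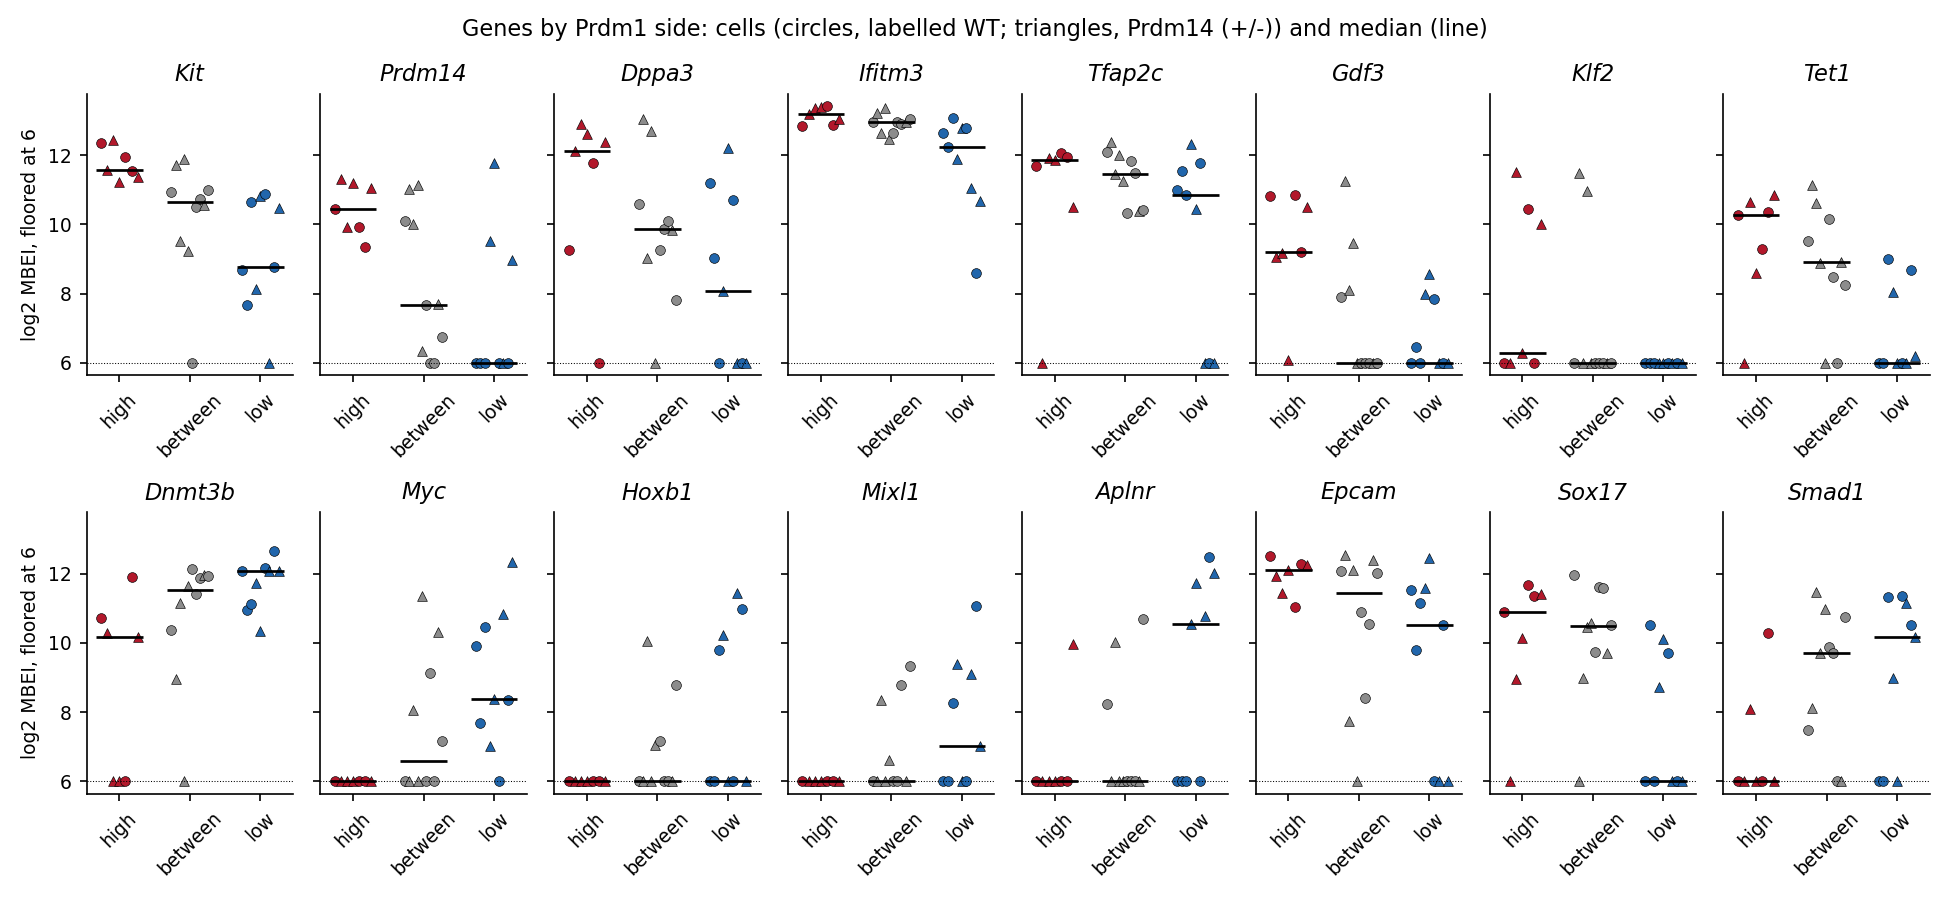
Values of 16 genes in log2 MBEI floored at 6 (dotted line), by side, in 7 Prdm1-high, 10 between and 9 Prdm1-low cells. Circles are cells labelled WT, triangles cells labelled *Prdm14* (+/-), and horizontal lines are medians. *Kit* has no Prdm1-low cell at or above the lowest Prdm1-high cell, and *Myc*, *Hoxb1* and *Mixl1* have every Prdm1-high cell at the floor.

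Pluripotency genes also leaned to the Prdm1-high side. All 22 on the list were measured and 14 counted, of which 3 were called higher (3.47% over all counted genes) and none lower, with a median difference of 0.87. The list score was 8.17 in Prdm1-high cells and 7.51 in Prdm1-low cells, a difference of 0.66 with a pooled SD of 0.40. Without the 3 cells of lowest *Prdm1* it was 0.60.

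*Gdf3*, a TGFβ-family ligand of pluripotent cells, had 6.07, 9.21 and 10.86 as lowest, median and highest in Prdm1-high cells and 4 of 9 Prdm1-low cells above the floor, none over 8.56. Its difference was 2.63. *Klf2*, a Krüppel-like factor of naive pluripotency, was listed at 0 in all 9 Prdm1-low cells and lay above the floor in 4 of 7 Prdm1-high cells, with a highest value of 11.52. *Utf1*, a chromatin protein of embryonic stem cells and PGCs, lay above the floor in 4 of 7 Prdm1-high cells and 2 of 9 Prdm1-low cells (difference 1.68). Values of 0 carried part of these differences. With them treated as missing, *Gdf3* differed by 1.68 (7 Prdm1-high and 4 Prdm1-low cells), and *Klf2* had no Prdm1-low cell left to compare.

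The core factors differed less or varied more. *Sox2* had a median of 10.56 in Prdm1-high cells, with 1 of 7 listed at 0, and of 7.37 in Prdm1-low cells, with 4 of 9 listed at 0, and was not called. *Nanog* had medians of 9.65 in Prdm1-high cells and 9.93 in Prdm1-low cells, of which 3 were listed at 0. *Pou5f1* (OCT4) averaged 11.89 ± 0.77 and 11.07 ± 0.98, and *Sall4* 12.52 ± 0.29 and 12.17 ± 0.44 on the Prdm1-high and Prdm1-low sides, and none of these genes was called. *Pou5f1* and *Sall4* lay above the floor in all 16 cells.

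Somatic mesoderm genes lay lower in Prdm1-high cells. The combined list had 51 measured genes and 33 counted, of which 3 were called lower (3.01% over all counted genes) and none higher, while 29 of the 33 differences were negative, with a median of -0.74. With values of 0 treated as missing, 4 of 30 were called lower, 23 of the 30 differences were negative and the median was -0.47. The score was 7.44 ± 0.36 in Prdm1-high cells and 7.97 ± 0.49 in Prdm1-low cells, a difference of -0.52 with a pooled SD of 0.44. The difference was unequal between the labels. Among cells labelled *Prdm14* (+/-) the score was 7.29 in Prdm1-high and 8.33 in Prdm1-low cells (-1.04), and among cells labelled WT it was 7.65 and 7.68 (-0.03). Whether the labels differ in this was not tested. Without the 3 cells of lowest *Prdm1*, whose scores were 8.22 to 8.64, the difference was -0.28.

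Primitive streak and nascent mesoderm genes accounted for all 3 calls, and the median of their 18 counted genes was -1.0, against -0.48 for the 15 counted genes of allantois and lateral mesoderm. *Mixl1*, a homeobox factor of the streak, was listed at 0 in all 7 Prdm1-high cells and lay above the floor in 5 of 9 Prdm1-low cells, up to 11.06 (difference -1.65, or -0.94 and no longer called without the 3 cells of lowest *Prdm1*). *Cdx1*, a caudal-type regulator of *Hox* genes, lay above the floor in 2 of 7 Prdm1-high cells and 8 of 9 Prdm1-low cells (difference -1.60, or -0.33 and not called with values of 0 treated as missing). *Aplnr*, the apelin receptor of migrating mesoderm, was listed at 0 in 6 of 7 Prdm1-high cells and reached 10.55 to 12.48 in 5 of 9 Prdm1-low cells. Its difference of -2.5 became -1.15 without the 3 cells of lowest *Prdm1*.

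Other mesoderm transcripts were measured in most Prdm1-high cells and were not called. *Evx1*, a posterior streak homeobox gene, had medians of 10.95 in Prdm1-high cells and 11.08 in Prdm1-low cells, and its floored difference of -1.09 includes 1 Prdm1-high cell listed at 0. *Mesp1*, the factor of the earliest mesoderm, lay above the floor in 4 of 7 Prdm1-high cells and 7 of 9 Prdm1-low cells, with medians of 9.08 and 11.26 and a floored difference of -1.59 against a pooled SD of 2.57. *Msx1* averaged 11.42 ± 1.26 in Prdm1-high cells and 11.80 ± 0.72 in Prdm1-low cells. *Hand1*, a helix-loop-helix factor of the allantois, had medians of 8.21 and 9.21 on those sides.

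Few *Hox* genes lay above the floor in these cells, and 6 of 26 measured were counted. Of these, 2 were called lower, beside 3.01% over all counted genes, and with so few genes the count says little about the list. *Hoxb1*, the anterior *Hox* gene that marks posterior mesoderm before somites form, was at or below 3.32 in all 7 Prdm1-high cells and lay above the floor in 4 of 9 Prdm1-low cells, at 9.79, 10.23, 11.46 and 10.97. *Hoxd9* lay above the floor in 1 of 7 Prdm1-high cells (9.02, cell 49) and 6 of 9 Prdm1-low cells. *Hoxa5* and *Hoxc6* hardly differed (-0.05 and 0.12). *Hoxd9* had a difference of -1.93, and *Hoxb1* of -2.05, or -1.34 without the 3 cells of lowest *Prdm1*.

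Over the 26 cells the germ cell and somatic mesoderm scores had a Spearman correlation of -0.65. Within the Prdm1-high, between and Prdm1-low cells it was -0.57 (n = 7), -0.62 (n = 10) and -0.52 (n = 9). These are descriptions, since the points share arrays, runs and labels.

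**Figure D3:**
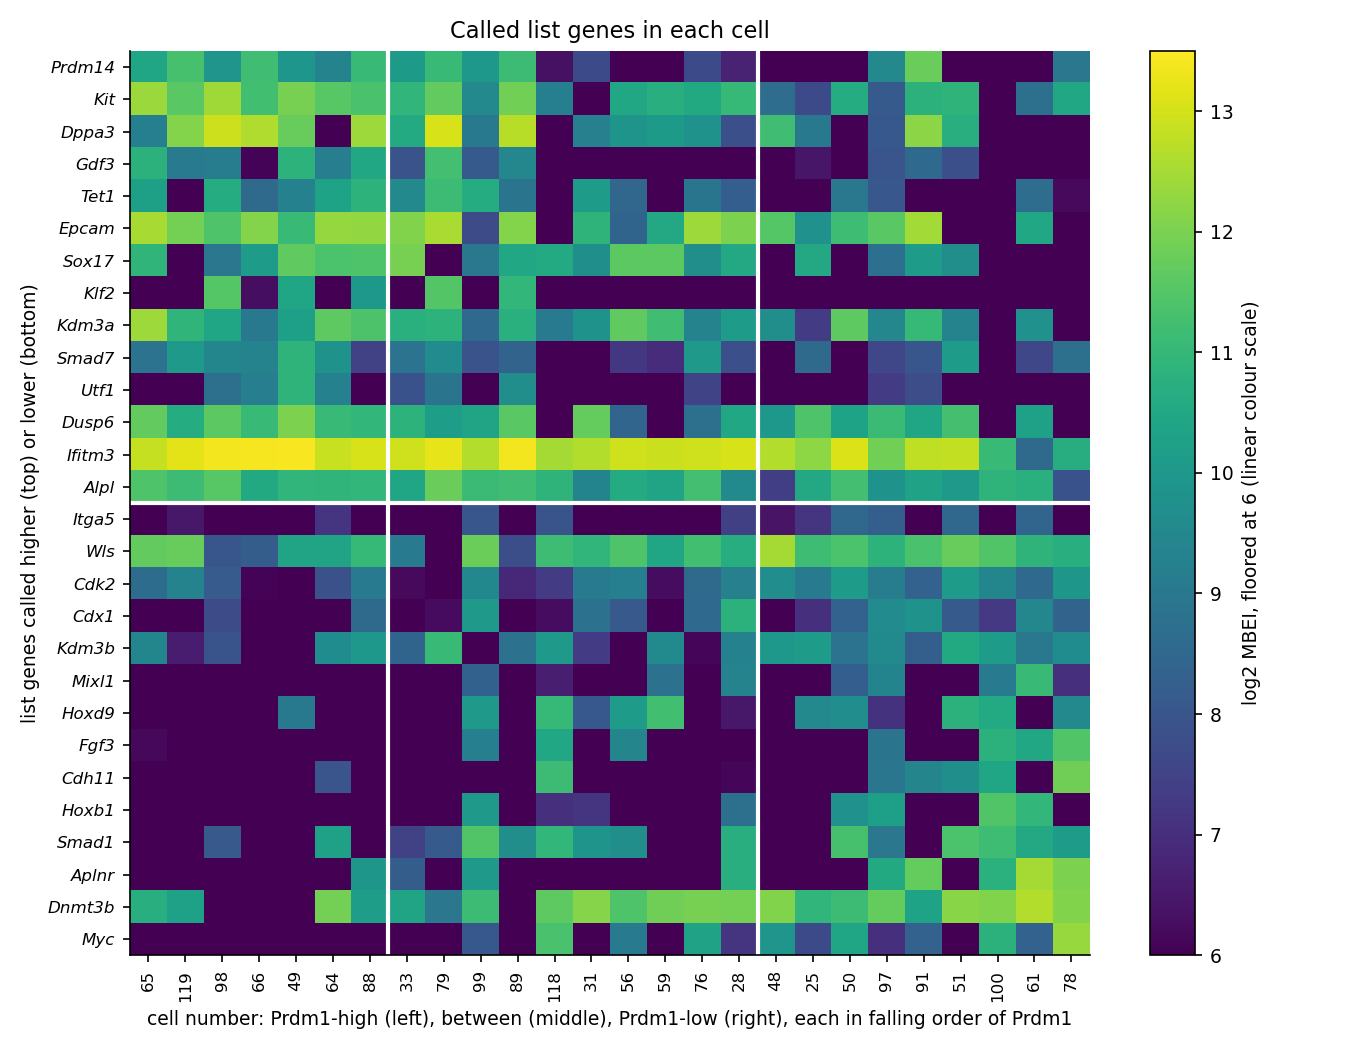
Level (colour, log2 MBEI floored at 6) of the 28 list genes that were called, in each of 26 cells named by cell number. Prdm1-high cells are left, between cells in the middle and Prdm1-low cells right, in falling order of *Prdm1* within each. *Dppa3*, *Gdf3* and *Sox17* are at the floor and *Aplnr* is high in the 3 rightmost cells.

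Among the enzymes that write and remove DNA methylation, 20 genes were measured and 16 counted, of which 1 was called higher and 1 lower. These are few genes, beside 3.47% called higher and 3.01% called lower over all counted genes, so the counts say little about the list. *Tet1*, which oxidises 5-methylcytosine, had a median of 10.26 and a highest value of 10.85 in Prdm1-high cells, 6 of 7 of them above the floor, and in Prdm1-low cells 4 of 9 lay above the floor with a highest value of 9.01. Its difference was 2.55, or 2.41 with values of 0 treated as missing, with 2.47 among cells labelled *Prdm14* (+/-) and 2.83 among those labelled WT.

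*Dnmt3b*, the main de novo methyltransferase of the epiblast, was present in every Prdm1-low cell, with 10.34, 12.07 and 12.65 as lowest, median and highest. In Prdm1-high cells 3 of 7 were listed at 0 and the other 4 had 10.71, 10.28, 11.92 and 10.18. The difference was -2.96 with a pooled SD of 1.80 (-3.44 among cells labelled *Prdm14* (+/-), -2.25 among those labelled WT). With values of 0 treated as missing the difference was -0.91 and not called. Where Prdm1-high cells had a value, it lay within the lower part of the Prdm1-low range or just below it, except for 1 cell at 11.92.

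*Uhrf1*, the cofactor that brings the maintenance enzyme to replicated DNA, had medians of 10.26 in Prdm1-high cells and 10.09 in Prdm1-low cells, with 3 of 7 and 2 of 9 listed at 0, and was not called. Its floored difference was -3.54 among cells labelled *Prdm14* (+/-) and 1.86 among those labelled WT. *Dnmt1*, the maintenance enzyme itself, averaged 10.80 ± 1.40 in Prdm1-high cells and 11.71 ± 0.22 in Prdm1-low cells (-0.91, not called). *Dnmt3a* differed by 0.34.

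Among 22 counted genes of H3K9 and Polycomb methylation, *Kdm3a* was called higher and its relative *Kdm3b* lower, which is 1 gene each way beside 3.47% and 3.01% over all counted genes. Neither was called with values of 0 treated as missing (1.11 and -0.86). Both encode demethylases of H3K9. *Kdm3a* had 9.03, 10.92 and 12.40 as lowest, median and highest in Prdm1-high cells, and in Prdm1-low cells 7 of 9 lay above the floor with a median of 9.46 (difference 1.94, or 1.12 without the 3 cells of lowest *Prdm1*). *Kdm3b* lay above the floor in 5 of 7 Prdm1-high cells, up to 10.01, and in all 9 Prdm1-low cells, from 8.27 to 10.55 (difference -1.64). *Ehmt1*, *Ehmt2* and *Ezh2*, which methylate H3K9 or H3K27, differed by -0.86, 0.32 and -0.29 and were not called.

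**Figure D4:**
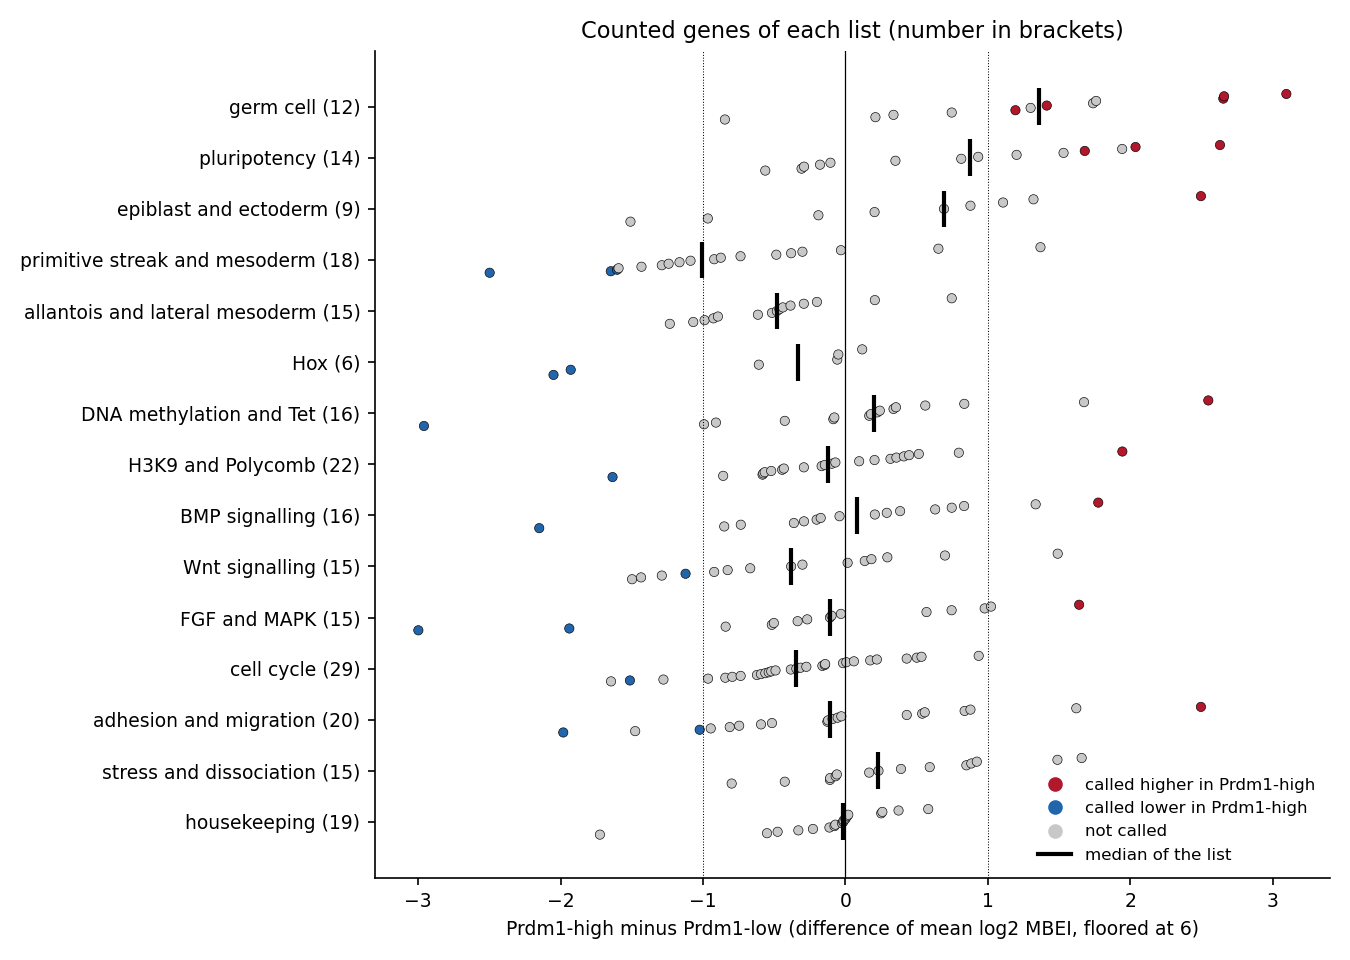
Difference of mean log2 MBEI, Prdm1-high minus Prdm1-low, for each counted gene of 15 lists, with red points called higher, blue points called lower, grey points not called and a black bar at each list's median. The germ cell median is 1.36, that of primitive streak and mesoderm -1.0 and that of the 19 housekeeping genes near 0.

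In the signalling lists the calls were few, at most 2 genes a direction in each list. Over all counted genes, 3.47% were called higher and 3.01% lower. With so few genes, these counts say little about the lists. Of 16 counted BMP genes, *Smad7*, the inhibitory SMAD, was called higher. It had medians of 9.43 in Prdm1-high cells and 7.61 in Prdm1-low cells, of which 2 were listed at 0, and its difference was 1.31 with values of 0 treated as missing. *Smad1*, which carries the BMP signal to the nucleus, was called lower, with 2 of 7 Prdm1-high cells and 6 of 9 Prdm1-low cells above the floor and a difference of -2.15, or -1.37 without the 3 cells of lowest *Prdm1*. The ligand *Bmp4* differed by 0.21 and the target *Id1* by -0.17. The list median was 0.08.

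Of 15 counted FGF and MAPK genes, 1 was called higher and 2 lower, beside 3.47% and 3.01% over all counted genes. *Myc* had the largest difference among them. It was listed at 0 in all 7 Prdm1-high cells, and also in all 4 cells labelled KO, while 8 of 9 Prdm1-low cells lay above the floor, from 7.03 to 12.33 with a median of 8.37 over the side. Its floored difference was -3.0. It rests wholly on values of 0 on the Prdm1-high side, which leave no cell to compare where they are treated as missing. *Fgf3* was above the floor in 1 of 7 Prdm1-high cells (6.15) and 4 of 9 Prdm1-low cells, and its difference of -1.94 was -0.46, and not called, without the 3 cells of lowest *Prdm1*. *Dusp6*, the MAPK phosphatase induced by FGF, was called higher, with all 7 Prdm1-high cells between 10.64 and 12.03, 7 Prdm1-low cells above the floor up to 11.42 and 2 listed at 0. Its difference of 1.64 was 0.53, and not called, without the 3 cells of lowest *Prdm1*, which hold both of those 0 values.

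Of 15 counted WNT genes, only *Wls*, which escorts WNT ligands to the surface, was called (lower, -1.12). The share called lower over all counted genes is 3.01%. The list median was -0.38. *Axin2* and *Lef1*, a target and an effector of the pathway, differed by 0.02 and 0.18.

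Cell cycle genes leaned lower in Prdm1-high cells, with 21 of 29 counted differences negative and a median of -0.34. Only *Cdk2* was called (lower, beside 3.01% over all counted genes). It had a median of 8.15 in Prdm1-high cells, with 1 listed at 0, and of 9.44 in Prdm1-low cells. Cell 119 stood apart on the Prdm1-high side, with a cell cycle score of 9.12 against 10.08 to 10.80 in the other 6 cells, and was listed at 0 for *Ccna2*, *Ccnb2*, *Cdk1*, *Bub1*, *Mki67* and *Aurkb*. The difference of the list score, -0.38, was -0.20 without that cell. It was -0.63 among cells labelled *Prdm14* (+/-), to which cell 119 belongs, and -0.16 among those labelled WT, where the cyclins *Ccna2* and *Ccnb2* and the kinase *Cdk1* differed by 0.41, 0.24 and 0.05. With values of 0 treated as missing, 16 of 29 differences were negative and the median was -0.01. *Mycn* ran the other way from *Myc* without being called, at 11.80 ± 0.34 in Prdm1-high cells and 10.87 ± 1.08 in Prdm1-low cells. The replication genes *Mcm7* and *Top2a* differed by 0.01 and 0.17.

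The adhesion genes that were called included an epithelial and a mesenchymal one. *Epcam*, an epithelial adhesion molecule kept by PGCs, had 11.04, 12.11 and 12.51 as lowest, median and highest in Prdm1-high cells, and in Prdm1-low cells 6 of 9 lay above the floor, from 9.79 to 12.45, with 3 at 0 (difference 2.5, or 1.52 without the 3 cells of lowest *Prdm1*, of which 2 are at 0, and 0.77 and not called with values of 0 treated as missing). *Cdh11*, a cadherin of mesenchyme, lay above the floor in 1 of 7 Prdm1-high cells (7.98) and 5 of 9 Prdm1-low cells, up to 11.88. Its difference of -1.98 was -4.16 among cells labelled *Prdm14* (+/-) and -0.09 among those labelled WT. *Itga5*, the fibronectin receptor subunit, was called lower at -1.02, and *Cdh1* (E-cadherin) differed by 0.88 without a call.

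Among markers of other neighbouring cell types, none of 5 counted blood and endothelial genes, 8 extraembryonic ectoderm genes and 15 stress and dissociation genes was called. Over all counted genes 3.47% were called higher and 3.01% lower, so with so few genes the lack of calls says little about these lists. Scores on the Prdm1-high and Prdm1-low sides were 6.30 and 6.21 for blood and endothelium, 7.22 and 7.14 for extraembryonic ectoderm, and 7.86 and 7.60 for stress and dissociation. The endoderm score was 6.41 in Prdm1-high and 6.28 in Prdm1-low cells, a difference of 0.13 against a pooled SD of 0.11, and the Prdm1-high cell was the higher in 52 of 63 pairs of cells from both sides. The difference was 0.055 with values of 0 treated as missing. This score averages 19 measured genes, and most of its floored difference came from 1 gene, *Sox17*, so it does not describe the list as a whole. Of 4 counted endoderm genes, *Sox17* was called higher (3.47% over all counted genes), with medians of 10.91 in Prdm1-high and 4.58, below the floor, in Prdm1-low cells. Its floored difference was 2.39, or 1.55 without the 3 cells of lowest *Prdm1*. *Sox17* marks definitive endoderm, and in human embryos it also specifies PGCs. Of 9 counted epiblast and ectoderm genes only *Epcam*, also on the adhesion list, was called (higher, beside the same 3.47% over all counted genes).

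Beyond the lists, the 12 highest and 12 lowest called genes with the same sign within each label and within runs 2 and 3 were taken, and *Prdm14*, *Kit*, *Myc*, *Dnmt3b* and *Aplnr* were among them. *Tspan33*, a tetraspanin membrane protein, had the largest floored difference of these (4.18), which rests on values of 0 and leaves no Prdm1-low cell to compare where they are treated as missing. It lay between 11.41 and 12.18 in 5 of 7 Prdm1-high cells and was listed at 0 in the other 2, in all 9 Prdm1-low cells and in all 4 cells labelled KO. *Cldn5*, a tight-junction claudin best known from endothelium, lay above the floor in 6 of 7 Prdm1-high cells (8.02 to 11.55), in none of 9 Prdm1-low cells and in 4 of 10 cells between. It lay between 9.26 and 11.74 in all 4 cells labelled KO. The others had differences of 3.20 (*Zfp462*, a zinc finger protein), 3.09 (*Lpin2*, a phosphatidate phosphatase), 3.01 (*Mxi1*, an antagonist of MYC), 2.95 (*Psd3*), 2.93 (*Ppm1m*), 2.77 (*Lrrk2*), 2.72 (*Intu*, a protein of planar polarity and cilia) and 2.68 (*Glb1*, the lysosomal β-galactosidase). *Tspan33*, *Cldn5*, *Lrrk2* and *Glb1* met the limit of 6 of the 26 cells only through the Prdm1-high side. That side held 5, 6, 7 and 5 of their 9, 10, 11 and 8 cells above the floor.

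On the lower side *Spop*, an adaptor of a ubiquitin ligase, differed most of these (-3.28). In Prdm1-high cells it was either listed at 0 (4 cells) or between 11.77 and 11.94 (3 cells), and in all 9 Prdm1-low cells it lay at 11.51 or higher. Its difference was 0.055 with values of 0 treated as missing, the pattern also seen in *Rps2*, where a cell was either at 0 or near 1 level. *Spop* was equally high in 9 of 10 cells between the limits, and its Spearman correlation with *Prdm1* over the 26 cells was only -0.21. The others had differences of -2.99 (*Amotl2*, an angiomotin-like scaffold), -2.93 (*Bscl2*, seipin of lipid droplets), -2.70 (*Rrm2*, which makes deoxyribonucleotides for replication), -2.67 (*Kbtbd8*), -2.54 (*Tmem127*), -2.54 (*Gja1*, a gap junction connexin), -2.54 (*Lgalsl*) and -2.48 (*Prkd1*, protein kinase D). With values of 0 treated as missing, 13 of the 24 genes taken on both sides kept their call, 5 lost it and 6 had too few cells. Among those that lost it, *Amotl2* differed by -0.35 and *Gja1* by -0.94. *Cldn5*, *Glb1* and *Tmem127* were among those with too few cells. *Myc*, *Kbtbd8*, *Tmem127* and *Aplnr* met the limit of 6 cells only through the Prdm1-low side. That side held 8, 8, 7 and 5 of their 13, 13, 12 and 9 cells above the floor.

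The genes whose levels ran most closely with *Prdm1* over all 26 cells, by Spearman correlation, were *Lrrk2* (0.76), *Kit* (0.71), *Cldn5* (0.71), *Mov10* (0.71) and *Cox8c* (0.69) at one end. At the other were *Kbtbd8* (-0.72), *Rmdn3* (-0.70), *Dnmt3b* (-0.68), *Sf3b5* (-0.68) and *Myc* (-0.67). Of these, *Lrrk2*, *Cldn5*, *Kbtbd8* and *Myc* met the limit of 6 cells only through 1 side, as given above. *Lrrk2*, a large kinase, had 6.71, 8.86 and 10.68 as lowest, median and highest in Prdm1-high cells, and of the 9 Prdm1-low cells only 1 lay above the floor (7.29). *Mov10*, an RNA helicase that restrains retrotransposons, had medians of 10.84 in Prdm1-high cells and 8.10 in Prdm1-low cells, of which 2 were listed at 0. *Rmdn3*, a mitochondrial tether, had a highest value of 8.36 in Prdm1-high cells and a lowest of 8.36 in Prdm1-low cells, so its sides only just failed to overlap.

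**Figure D5:**
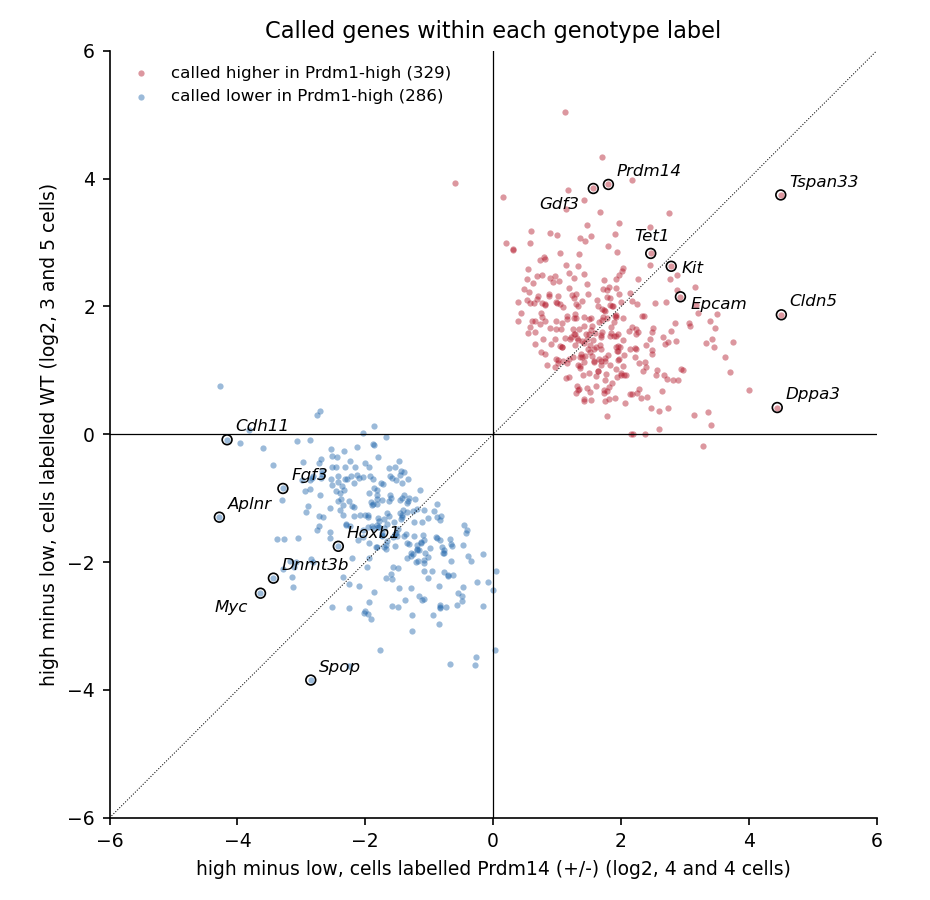
Difference Prdm1-high minus Prdm1-low (log2) among cells labelled *Prdm14* (+/-) (horizontal, 4 and 4 cells) and among cells labelled WT (vertical, 3 and 5 cells), for the 329 genes called higher and 286 called lower with both labels together. *Kit*, *Tet1* and *Epcam* lie near the dotted line of equal differences, while *Dppa3*, *Cdh11* and *Aplnr* lie far along the horizontal axis.

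The direction of the calls was seldom carried by 1 label or run, although the same cells made the calls and the shared direction is no independent support. Of the 329 genes called higher, 328 had a positive difference among cells labelled *Prdm14* (+/-) and 326 among those labelled WT. For the 286 genes called lower, the corresponding counts of negative differences were 283 and 280. Within array run 2 (4 Prdm1-high and 3 Prdm1-low cells) the sign was kept by 322 and 280, and within run 3 (2 and 2 cells) by 311 and 265. The sizes were less even than the signs, as the called genes *Dppa3* and *Cdh11* show. Among genes not called, the sign could turn between labels, as in *Uhrf1*.

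Many calls rested on a narrow margin over the spread of the cells. Of the 28 list genes called, 11 kept their call with each of the 16 cells left out in turn and also without the 3 cells of lowest *Prdm1*, namely *Kit*, *Prdm14*, *Gdf3*, *Klf2*, *Tet1* and *Smad7* on the higher side and *Dnmt3b*, *Myc*, *Cdx1*, *Cdk2* and *Kdm3b* on the lower side. For *Klf2* these 2 checks say little. It only just met the limit of 6 cells above the floor, with no Prdm1-low cell among them, and the limit was not applied again. Its Prdm1-low cells were all listed at 0, so leaving any of them out could not change their mean. The same holds for *Myc* on the Prdm1-high side, where every cell was listed at 0. Leaving out 1 cell ended the call of 12 genes at least once. *Aplnr* and *Smad1* lost it with 11 of the 16 cells, *Dppa3* with 10, *Dusp6* and *Itga5* with 9, *Wls* with 7, *Cdh11*, *Fgf3* and *Hoxb1* with 4, *Alpl* and *Hoxd9* with 2 and *Kdm3a* with 1. Leaving out the 3 cells of lowest *Prdm1* ended the call of 12 genes, which were *Dppa3*, *Ifitm3*, *Utf1*, *Epcam*, *Sox17*, *Dusp6* and *Kdm3a* among those called higher and *Hoxb1*, *Mixl1*, *Aplnr*, *Smad1* and *Fgf3* among those called lower. With values of 0 treated as missing and at least 2 cells left on each side, 13 of the 28 genes kept their call, 10 lost it and 5 could not be compared. Those that lost it were *Prdm14*, *Epcam*, *Sox17*, *Dusp6* and *Kdm3a* on the higher side and *Dnmt3b*, *Cdx1*, *Cdh11*, *Smad1* and *Kdm3b* on the lower side, and those with too few cells were *Klf2*, *Myc*, *Mixl1*, *Aplnr* and *Hoxd9*. The calls of 5 genes, *Kit*, *Gdf3*, *Tet1*, *Smad7* and *Cdk2*, were kept in all 3 checks. Of all genes called higher, 161 of 329 kept the call with values of 0 treated as missing, and of those called lower, 133 of 286.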

How the data were processed

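Per cell, the authors amplified cDNA, ran 1 Affymetrix mouse genome array and deposited log2 MBEI values from dChip 1.3 (PM/MM difference model). The scaling between arrays and the origin of the values of 0 were not given in the sources used here. Probe sets (45101) were named through the platform annotation, checked by gene identifier against RefSeq (0 symbols updated). Of these, 34958 had 1 symbol, 932 several and 9211 none listed. Each of 18194 genes was represented by its probe set of highest mean level in the 30 cells. Of 387 list genes, 22 had no probe set of that symbol and were not used here.

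The floor was 6. No test was run, because each sample is 1 cell and embryos are not named. Floored means, pooled SDs, list scores and Spearman correlations were computed in Python 3.11.15 (NumPy 2.4.6, pandas 2.3.3, SciPy 1.17.1, matplotlib 3.10.9), and the contrast was tested on simulated data. Named genes were list members, the 12 highest and 12 lowest called genes with a mean of at least 8 on the higher side and 1 sign in each label and each run holding at least 2 cells a side, and the 5 highest and 5 lowest by correlation with *Prdm1*. *Impdh1* was named after its values were seen. Differences with values of 0 treated as missing (at least 2 cells above 0 on each side) were added after seeing the data. The cells, the lists and the 3 cells left out in places were chosen with earlier results of these data known. Their number and the unstated depth limit the precision.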

Additional observations from a re-analysis of the deposited data

Results flagged for a closer look

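In 74 checks of single genes within a side, 9 had 1 cell far from the rest, measured as the gap to the nearest cell over the side's whole range. Chance flags about 1 in 20 such groups, and values at the floor make a lone cell above it stand out fully. Among Prdm1-high cells, cell 119 was far below the others in *Tfap2c* (at the floor, gap 0.74 of the range) and in *Dnd1* (9.78, gap 0.646), and cell 66 was far below in *Gdf3* (6.07, gap 0.625). The gap was 1, the whole range, where 1 cell lay above the floor and all others on its side at it. On the Prdm1-high side these were cell 49 in *Hoxd9* (9.02) and *Kbtbd8* (6.73), cell 88 in *Aplnr* (9.97), cell 64 in *Cdh11* (7.98) and cell 65 in *Fgf3* (6.15). On the Prdm1-low side it was cell 25 in *Lrrk2* (7.29). Cells 119 and 49 were flagged more than once.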

How the results depend on the processing

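The numbers of genes called higher and lower in Prdm1-high cells (329 and 286) depended on the settings. They were 187 and 105 with a floor of 8, 843 and 750 with medians over cells, 148 and 78 with all 26 cells split midway between the limits (14 and 12 cells), 517 and 536 with the limits moved apart (4 and 8 cells), and 77 and 50 with a difference of at least 2 and no SD condition. Smaller subsets gave more calls, with 670 and 866 in cells labelled *Prdm14* (+/-), 874 and 514 in cells labelled WT, 726 and 782 in run 2 and 1045 and 1212 in run 3. Averaging a gene's probe sets gave 202 and 191. With values of 0 treated as missing, chosen after seeing the data and possible for 8920 of the counted genes, the counts were 507 and 348, the germ cell and somatic mesoderm differences were 0.89 and -0.59, and *Spop* turned to 0.055. Leaving out each of the 16 cells in turn gave 330 to 423 and 262 to 400. The germ cell difference was 0.95 to 1.21 when each cell was left out, and the somatic mesoderm difference -0.62 to -0.44. The somatic mesoderm difference was -1.04 in cells labelled *Prdm14* (+/-), -0.029 in cells labelled WT and -1.25 in run 3. The cause of these shifts was not tested. Sides set on quantile-normalized *Prdm1* held the same 7 and 9 cells. Run 1 alone was not run, since it holds 1 Prdm1-high cell. Without the 3 cells of lowest *Prdm1*, chosen after seeing the data, the counts were 467 and 289. No paired analysis was possible because each cell number occurs once.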

Other observations

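The 10 cells between the limits did not fall evenly between the sides in each gene. *Smad1* and *Sox17* had medians there of 9.70 and 10.49, against 2.41 and 10.91 in Prdm1-high cells and 10.16 and 4.58 in Prdm1-low cells. These are medians of deposited values, and 2.41 and 4.58 lie below the floor. *Kbtbd8* had medians below the floor both between the limits and in Prdm1-high cells (2.67 and 2.36 as deposited), against 9.37 in Prdm1-low cells. *Spop* had a median of 11.82 there and was listed at 0 in 1 cell, against 4 cells at 0 in Prdm1-high and none in Prdm1-low cells. The 4 cells labelled *Prdm14* KO, which the sides leave out, were at the floor for *Myc*, *Hoxb1*, *Mixl1*, *Aplnr* and *Cdh11* and had medians of 12.71 for *Dppa3*, 10.61 for *Tet1* and 10.63 for *Klf2*. *Dnmt3b* was listed at 0 in 2 of them. Not every called gene was near its Prdm1-high level in the cells labelled KO. *Bscl2*, *Rrm2* and *Spop* averaged 9.80, 11.41 and 11.83 there, against 9.72, 11.52 and 11.78 in Prdm1-low cells. In Prdm1-high cells these genes averaged 6.79, 8.82 and 8.50. *Smad1* lay between 7.52 and 11.10 in the 4 cells labelled KO.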
